A study of Mus musculus with 2 samples.

Results

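Secreted frizzled-related proteins are soluble Wnt antagonists, and the 5 mouse genes that encode them, Sfrp1, Sfrp2, Sfrp4, Sfrp5 and Frzb (also called Sfrp3), were followed in C2C12 muscle cells with and without a hairpin against Lrrfip1. C2C12 is an established mouse myoblast line whose cells fuse into myotubes when serum is lowered. All probe sets whose single gene symbol in the platform annotation is one of these 5 were taken, which gave 11 probe sets of 45101 on the array and 5 genes of 18193. A probe set is a group of short probes that reads 1 region of a transcript. The family was chosen by its measured differences between these same 2 arrays, so those differences are given as a description.

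The data are 1 Affymetrix array per group, on total RNA of cells kept for 5 days in 2% horse serum after growth in 10% fetal bovine serum. One group carried the hairpin shLrrfip1a. The control carried a hairpin spelled shLCUI in the sample labels and shLUCI in the design text. Both groups share the line, the media and the length of differentiation, and the labels do not say whether each was 1 clone or a pool of infected cells. Each group rests on 1 hairpin and 1 sample, so no difference below has a replicate check, a standard error or a p-value.

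Wnt proteins are secreted lipid-modified ligands that bind Frizzled receptors and Lrp5 or Lrp6, which stabilises beta-catenin, or act through beta-catenin-independent planar polarity and calcium routes. Each secreted frizzled-related protein carries a cysteine-rich domain like that of the Frizzled receptors, followed by a netrin-like domain, and most are known to sequester Wnt ligands outside the cell. Sfrp1, Sfrp2 and Sfrp5 form one branch of the family by sequence, and Sfrp4 and Frzb another. In skeletal muscle Wnt signals act on satellite cells and on myoblast differentiation, and Sfrp proteins have been described as modulators of both. Lrrfip1 encodes a nucleic acid-binding protein described as a repressor that binds GC-rich DNA.

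Sfrp1 was lower and Sfrp2 higher in the shLrrfip1a array, each by more than 2-fold, and the other 3 members stayed near level or were dim. Differences are on the scale log2(intensity + 16), shLrrfip1a minus control, which understates the change of dim probe sets, and at least 2-fold means a difference of 1 or more in size. A gene was represented by its brightest probe set and was kept where its mean level lay above the median of all non-control probe sets, an intensity of 52.4. Sfrp1, Sfrp2 and Sfrp5 passed this filter, and Sfrp4 and Frzb did not. Of the 3 that passed, 1 was at least 2-fold higher, beside 0.664% of 11448 genes, and 1 at least 2-fold lower, beside 0.69% of them (1.35% in either direction). The members were chosen with this contrast known, so nothing is read from that count.

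**Figure D1:**
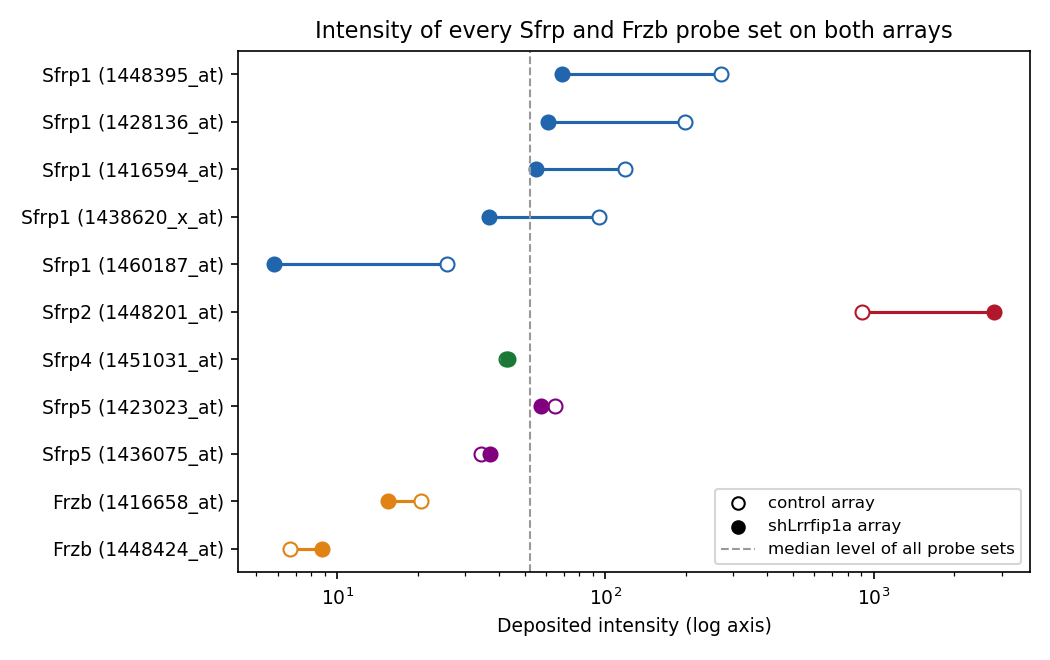
Deposited intensity (log axis) of each of the 11 probe sets on the control array (open circles) and the shLrrfip1a array (filled circles), with the probe set identifier in brackets and the median level of all non-control probe sets as a dashed line. All 5 Sfrp1 probe sets lie to the left of their control value, and the Sfrp2 probe set moves right from 907 to 2804.

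Sfrp1, a Wnt-binding antagonist of the first branch, is annotated at chr8:23411383-23449632 on GRCm38.p6. Its brightest probe set, 1448395_at, read 68.7 in the shLrrfip1a array against 269 in the control. The next, 1428136_at, read 60.9 against 198, and 1416594_at read 55.1 against 118. The array with the hairpin against Lrrfip1 was the lower one on each. The probe set 1438620_x_at, whose suffix marks probes that may bind other transcripts, read 36.9 against 94.4. The dimmest, 1460187_at, read 5.84 against 25.7, below the level filter on both arrays.

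Sfrp1 was thus lower on 5 of 5 probe sets, at 22.7% to 46.6% of the control intensity. The differences were -1.75, -1.48, -0.92, -1.06 and -0.93 in the order given, with a mean of -1.23 ± 0.37 (SD across its 5 probe sets, which all read 1 RNA sample per array). Over the 4 probe sets above the filter the mean was -1.30 ± 0.38. Of the 5 probe sets 3 were at least 2-fold lower, beside 0.398% of 34945 probe sets with 1 gene symbol. The probe sets 1448395_at, 1416594_at and 1460187_at share 1 source sequence accession in the platform annotation, yet they stood at 25.5%, 46.6% and 22.7% of control. Where on the transcript each probe set lies was not analysed here.

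On the control array, the brightest Sfrp1 probe set exceeded 84.5% of all non-control probe sets, and on the shLrrfip1a array 57.3%. Its signal thus stood well above the middle of the control array and close to the middle of the other. Among 11448 genes, 15 had a lower difference than Sfrp1. The size of the Sfrp1 difference depends on the pseudocount: 1448395_at gave -1.95 with a pseudocount of 1 and -1.33 with 64, and 1460187_at gave -1.97 and -0.36. The sign of the 5 differences is not tested by these alternatives, since a pseudocount added on both arrays cannot turn a sign. The scalings moved the values little: 1416594_at, with the smallest difference of the 5, ran from -0.96 with median centring to -0.77 with spike-in scaling.

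Sfrp2, of the same branch as Sfrp1, is annotated at chr3:83765750-83774314 on GRCm38.p6. It binds Wnt ligands and has also been described as a cofactor of procollagen processing. It has 1 probe set, 1448201_at, which read 2804 in the shLrrfip1a array against 907 in the control, or 309% of control. The difference was 1.61. With 1 probe set there is no second reading within the array.

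The Sfrp2 probe set exceeded 95.9% of non-control probe sets in the control and 99.2% in the shLrrfip1a array. Its level is far above the pseudocount, and its difference ran from 1.55 to 1.80 over 6 alternative scalings and pseudocounts. Among 11448 genes, 26 had a higher difference. The higher Sfrp2 signal and the lower Sfrp1 signal came from the same 2 RNA samples, and a change in RNA per cell and a change in the share of cells that express a gene cannot be told apart in such bulk samples.

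**Figure D2:**
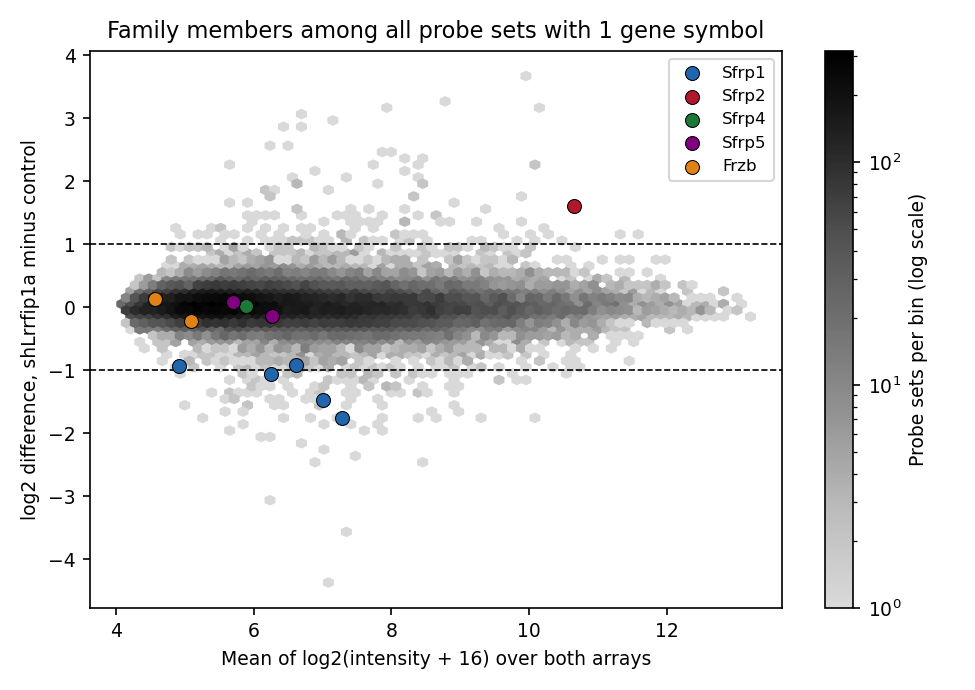
Difference (shLrrfip1a minus control) against the mean of log2(intensity + 16) over both arrays, with 34945 probe sets that have 1 gene symbol binned in grey and the 11 family probe sets coloured by gene. Dashed lines mark 2-fold. Sfrp2 lies above the cloud at a high level, the Sfrp1 probe sets lie along or below the lower dashed line, and those of Sfrp4, Sfrp5 and Frzb lie inside the cloud.

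A window upstream of a transcript start, as given by the promoter table, was at hand for Sfrp2, Sfrp5 and Frzb. None was at hand for Sfrp1, the member with the lower signal. The protein targeted by the hairpin has been described as binding GC-rich DNA, and whether it binds any of these windows was not tested. The Sfrp2 window is shown, chosen with the higher Sfrp2 signal known. The 250 bases before that start (RefSeq, GRCm38.p6, chr3:83766071-83766320, plus strand) are given 5′ to 3′ with each CG dinucleotide in capitals. The table's Sfrp2 start is not the outer edge of the annotated gene: the window begins 321 bases inside the gene span given above, whereas those of Frzb and Sfrp5 end directly before their spans.
Sfrp2 window: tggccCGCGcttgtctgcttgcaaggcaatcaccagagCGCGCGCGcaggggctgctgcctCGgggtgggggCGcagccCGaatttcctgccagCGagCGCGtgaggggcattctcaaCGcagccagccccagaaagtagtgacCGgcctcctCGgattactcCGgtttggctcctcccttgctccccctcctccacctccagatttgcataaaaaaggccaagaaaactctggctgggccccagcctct

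This Sfrp2 window was 63.6% G or C with 16 CG dinucleotides, against medians of 52.4% and 6 over 32851 windows of the same length, of which 80.0% had a lower GC share. The Frzb window was 64.4% G or C with 16 CG dinucleotides, and that of Sfrp5 59.6% with 13. The Sfrp2 window is thus not placed like the other 2 in its gene, and no order is read from these values. On either strand, the Sfrp2 window held no E-box (CANNTG, present in 66.2% of all windows), no CTTTGA core of the TCF/LEF site (13.8%), no GC box (GGGCGG, 32.7%) and no TATAAA (12.4%). The Frzb window held 1 E-box, 1 CTTTGA and 1 GC box, and the Sfrp5 window 1 E-box and 1 GC box. Such matches describe letters in these windows, and binding was not measured.

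Sfrp5, the third gene of the Sfrp1 branch and known in adipose tissue as an inhibitor of Wnt5a, is annotated at chr19:42197971-42202252. Its probe set 1423023_at read 57.5 in the shLrrfip1a array against 64.7 in the control, a difference of -0.14. The other, 1436075_at, read 37.3 against 34.4, a difference of 0.08. The 2 probe sets differed in opposite directions by small amounts, and scaling to spike-in controls moved the first to 0.01.

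Sfrp4, a member of the other branch, has been described in bone and in phosphate handling and is annotated at chr13:19623175-19632825. Its 1 probe set, 1451031_at, read 43.5 against 42.6, a difference of 0.02, and its sign turned negative with median centring (-0.02), quantile normalization (-0.02) and removal of a loess trend (-0.02). Frzb, an antagonist first known from cartilage, is annotated at chr2:80411970-80447396. Its probe set 1416658_at read 15.5 against 20.6 (-0.22), and 1448424_at read 8.75 against 6.69 (0.13). The Frzb readings exceeded 3.79% to 21.3% of the non-control probe sets of their array, and the sources used here give no detection calls with which to call it present or absent.

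**Figure D3:**
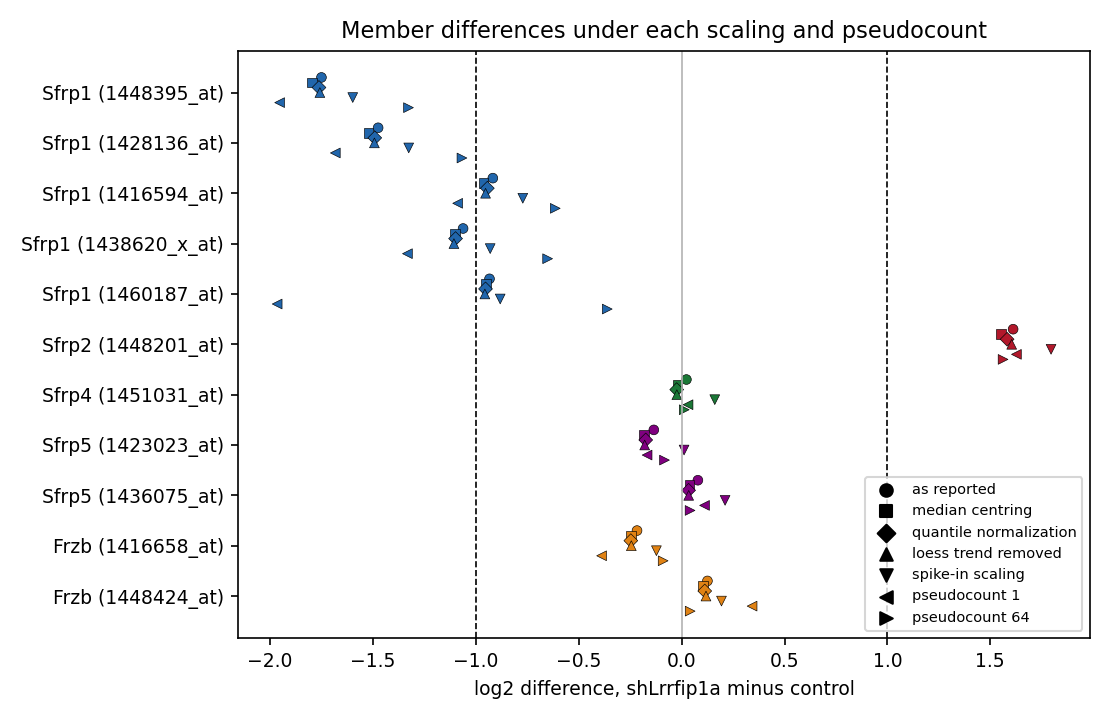
Difference (shLrrfip1a minus control) of each family probe set as reported and under 4 other scalings and 2 other pseudocounts, each with its own marker. Dashed lines mark 2-fold. All Sfrp1 markers lie below 0 and all Sfrp2 markers above 1.5, while the dim Sfrp1 probe set 1460187_at spreads most, from -1.97 to -0.36.

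Over both arrays and all genes, the genes nearest to Sfrp1 in the plane of the 2 log2 values were Edil3, an integrin-binding matrix protein (82.7 against 275), Vsir, an immune checkpoint receptor (84.8 against 240), and Plac8 (52.0 against 237). They lay 0.22, 0.30 and 0.36 log2 units from it. Nearest to Sfrp2 were the carbonyl reductase Cbr2 (2207 against 1122), the gap junction protein Gja1 (1996 against 995) and the chemokine Cxcl12 (1908 against 815), at distances of 0.46, 0.50 and 0.57. Over 2 arrays such a distance matches a level and a difference, and it carries no further information on the genes.

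Of the hairpin's target Lrrfip1, probe set 1433842_at read 375 against 531, 1448487_at 292 against 469 and 1437477_at 108 against 160. The target was lower on 3 of 3 probe sets, at 62.2% to 70.6% of control, a smaller reduction than that of any Sfrp1 probe set. The medians of the arrays were 53.5 and 51.4. Of 42 bacterial and phage spike-in probe sets, 38 read lower with shLrrfip1a. Scaling to them moved the median difference of all genes from 0.00 to 0.17. Under that scaling Sfrp1 gave -1.60 on its brightest probe set and Sfrp2 1.80.

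Of the muscle markers, 7 of 8 myotube genes lay above the filter and none reached 2-fold (median -0.10). Of these 7, 5 were lower and 2 higher. The differentiation factor Myog read 2005 against 2612, skeletal actin Acta1 5220 against 5586 and the fusion gene Mymk 734 against 787. Des read 1662 against 1953 and Tnnt3 691 against 737. The creatine kinase Ckm read 422 against 321, embryonic myosin Myh3 1294 against 1256 and the dim Actn2 41.9 against 28.8. The labelled cell type was thus borne out on both arrays. Summed over the 8 genes, the intensity was 12069 against 13281. Of the myoblast markers, Pax7 read 22.6 against 70.4 (-1.16), past 2-fold lower, though its mean level lay below the filter. Myf5 read 82.8 against 159 (-0.83) and Myod1 894 against 602 (0.56).

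Sfrp2 is also known from fibroblasts, and of 5 fibroblast markers 4 passed the filter. The proteoglycan gene Dcn was at least 2-fold higher (3497 against 260), while Col1a1 read 1384 against 1854, Pdgfra 219 against 283, Thy1 105 against 96.3 and Lum 20.4 against 16.5. Their summed intensity was 5225 against 2510, a gap that came from Dcn. None of 3 adipocyte and 4 osteoblast or chondrocyte markers on the array passed the filter, with readings from 7.42 to 54.9 and from 11.9 to 48.4. Of the macrophage markers 2 of 4 passed, and of the epithelial ones 1 of 4 (Krt8, at 57.1 against 54.2). Of the endothelial ones 1 of 3 passed, Kdr, which was at least 2-fold higher (118 against 48.0, 1.07). Summed over all 4 genes of each list, passed or not, the macrophage markers read 241 against 236 and the epithelial ones 177 against 165. The 3 endothelial markers summed to 179 against 100. No marker was at 0, since the deposited values have a floor of 1. The part of other cell types in the Sfrp1 and Sfrp2 differences was not tested.

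The other genes of the pathway were mostly level. Over 7 lists with 98 genes, 65 of 97 on the array passed the filter, and 1 stood at least 2-fold above and 1 at least 2-fold below its control reading. Their median difference was 0.01, against 0.00 over all 11448 genes. Those past the 2-fold size made up 3.08% of the 65, beside 1.35% of all genes. That larger share rests on too few genes for anything to be read from it. Both genes past 2-fold were Wnt ligands. Wnt10a read 58.8 against 208 (-1.58), and Wnt5b, a ligand of beta-catenin-independent signalling, 111 against 31.0 (1.43). Wnt5b was dim in the control, its chosen probe set 1439373_x_at may bind other transcripts, and its other probe set read 66.8 against 40.1. The next largest among the ligands was Wnt10b, known in muscle as a ligand that opposes adipogenic fate (78.4 against 39.9, 0.76), and the median of 9 ligands above the filter was -0.04.

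Of 13 receptor genes above the filter none reached 2-fold, and their median was 0.02. The largest differences were those of the Frizzled receptor genes Fzd5 (153 against 96.9, 0.58), Fzd8 (72.9 against 110, -0.50) and Fzd2 (350 against 486, -0.46). Frizzled receptors hold the domain that the Sfrp proteins resemble.

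Of 12 other secreted Wnt antagonists 3 passed the filter and none reached 2-fold on its brightest probe set. Igfbp4, an insulin-like growth factor binding protein that also inhibits Wnt signalling, read 198 against 237 (-0.24) on that probe set. Its 5 dimmer probe sets were all lower too, and 3 of them stood at 29.6% to 33.8% of control (-1.48, -1.35 and -1.44). The choice of probe set thus decides whether Igfbp4 counts as past 2-fold. The brightest, 1423757_x_at, may bind other transcripts, and so may 1437406_x_at, the one at -1.35. Dkk3 read 62.8 against 51.2 (0.23), and the Wnt deacylase Notum 104 against 115 (-0.13).

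Among genes of Wnt agonists, Wnt secretion and surface Frizzled turnover, 8 passed the filter with a median of -0.10. None was past 2-fold on the log2 scale used. The R-spondin receptor Lgr5 read 112 against 53.6 (0.88), the R-spondin Rspo2 124 against 62.9 (0.83) and the ubiquitin ligase Znrf3, which removes Frizzled from the surface, 260 against 197 (0.37). Of 18 transducers none was past 2-fold on the log2 scale used (median 0.06). Lef1, a nuclear partner of beta-catenin, read 52.5 against 111 (-0.89), the scaffold Dvl1 867 against 594 (0.54, but -0.08 on its other probe set) and Apc 334 against 228 (0.52).

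None of 13 target genes of beta-catenin above the filter reached 2-fold on the log2 scale used. Their median was 0.00, with 7 higher and 6 lower. Axin2, a feedback inhibitor widely used as a readout of the pathway, read 121 against 120 (0.01). Besides Lef1 and Lgr5, which are also targets, the largest difference was that of the cyclin Ccnd1 (1339 against 955, 0.48, and 0.55 and 0.56 on its other probe sets). Of 6 planar polarity genes none was past 2-fold on the log2 scale used. Prickle1 (148 against 71.2, 0.91), Daam1 (140 against 268, -0.86) and Prickle2 (160 against 90.1, 0.73) differed most. As plain intensities of the brightest probe set, Lef1 stood at 47.5%, Lgr5 at 209% and Prickle1 at 208% of control. The pseudocount of 16 thus decides that these genes stay under 2-fold on those probe sets. Their other probe sets, dimmer and below the filter, were under 2-fold as plain intensities too. They stood at 64.5% of control for Lef1, 93.6% for Lgr5, and 136% and 148% for Prickle1.

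**Figure D4:**
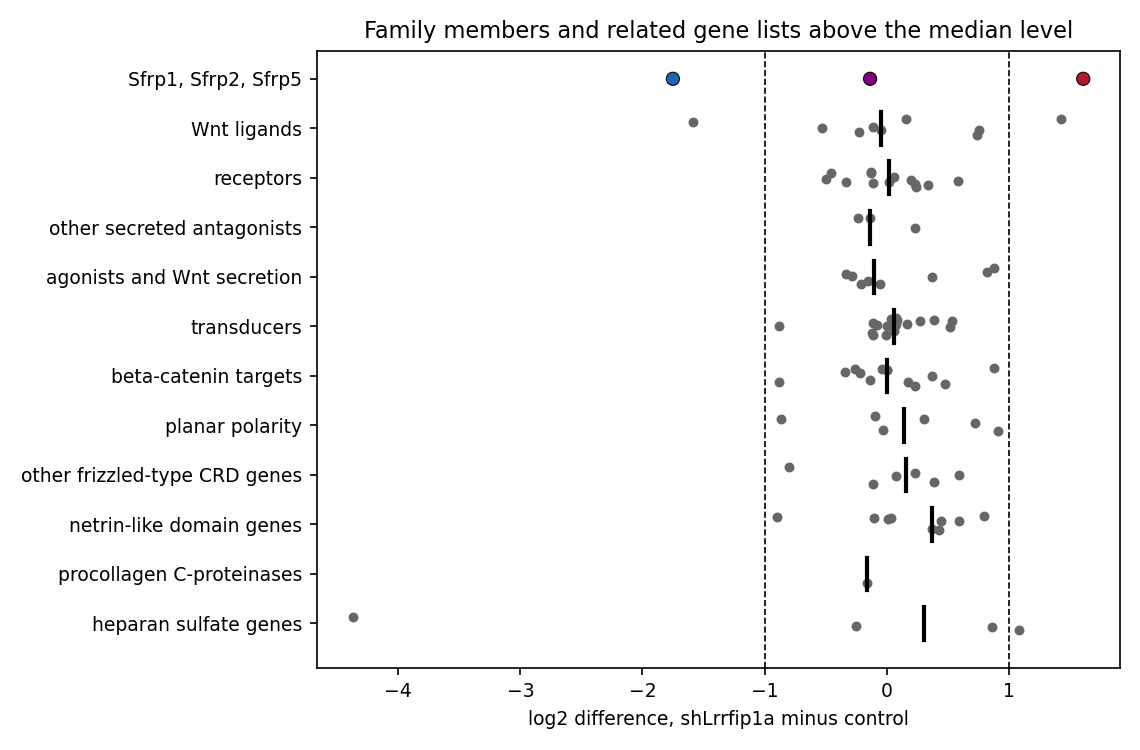
Difference (shLrrfip1a minus control) of the brightest probe set of each gene above the median level, by list, with the 3 family members that passed on top (Sfrp1 blue, Sfrp5 purple, Sfrp2 red), list medians as black bars and 2-fold as dashed lines. CRD stands for cysteine-rich domain. Most listed genes lie inside 2-fold, and Sfrp1 and Sfrp2 lie outside it on opposite sides together with Wnt10a, Wnt5b, Sulf1 and Sulf2.

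Of the genes that share a domain with the Sfrp proteins and passed the filter, none was past 2-fold, beside 1.35% of all genes. None in lists this short is near that share, and nothing is read from it. Of 6 other genes with a frizzled-type cysteine-rich domain above the filter, the collagen Col18a1 (462 against 815, -0.80), the carboxypeptidase Cpz (77.4 against 46.1, 0.59) and Smo, the Hedgehog signal transducer (488 against 370, 0.39), differed most, and the median was 0.16. Of 9 genes with a netrin-like domain 7 were higher and 2 lower, with a median of 0.37. They include the protease inhibitor Timp1 (2048 against 3820, -0.89) and the netrins Ntn4 (359 against 200, 0.79) and Ntn1 (408 against 265, 0.59). Bmp1, the procollagen C-proteinase whose activity Sfrp2 has been described as modulating, read 378 against 424 (-0.16).

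Sfrp1 binds heparin, and heparan sulfate chains shape where Wnt ligands and their antagonists are held. Of 4 such genes above the filter, the sulfatase Sulf1 was lower (13.1 against 584, -4.37) and its paralog Sulf2 higher (1639 against 762, 1.09). The glypican Gpc6 read 435 against 232 (0.87). Its probe set 1428774_at, nearly as bright, read 438 against 206 (1.03), so the choice of probe set decides whether Gpc6 counts as past 2-fold. The remaining Gpc6 probe sets gave 0.76, 0.74 and 0.28. Of the 4 genes, 50% were past 2-fold on the brightest probe set, beside 1.35% of all genes. Nothing is read from that share in so short a list. By their brightest probe sets, Sulf1 and Sulf2, like Sfrp1 and Sfrp2, stood on opposite sides of 2-fold in the same pair of arrays. That of Sulf2, 1447602_x_at, may bind other transcripts, and the other Sulf2 probe sets gave 0.85 and 0.31, under 2-fold. For Sulf1, 1436319_at gave -3.07 and the dim 1446416_at 0.03. The heparan sulfate genes were listed with the result on the brightest probe sets known, and no relation between the pairs was tested.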

How the data were processed

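The authors deposited linear intensities, 1 for each probe set of each array, from total RNA labelled as biotinylated cRNA (6 ug per array, per the labels' protocols). Their background correction, scaling and summary method are not given in the sources at hand. Probe sets were named through the platform annotation: 34945 non-control probe sets had 1 symbol, 34741 of these matched a gene identifier of GRCm38.p6 (all 5 members did), and sequences and coordinates are from RefSeq.

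Without rescaling, log2(intensity + 16) was computed with numpy 2.4.6, pandas 2.3.3, and, for the loess trend, statsmodels 0.14.6 (Python 3.11.15). Genes at least 2-fold apart were counted by size, without a test. The procedure was run on simulated data with shifts added on its own log2 scale. That checks the code and says nothing on the precision of 1 array per group. The members, lists and alternatives were chosen with earlier results of these data known. Named are all probe sets of the members and Lrrfip1. Named too are each list's genes past 2-fold, its 3 largest differences, and the 3 genes nearest to Sfrp1 and Sfrp2. Markers and Axin2 were named besides. So were the dimmer probe sets of Igfbp4, Sulf1, Sulf2 and Gpc6, after their values were seen. Alternatives were 4 scalings, pseudocounts of 1 and 64, sizes of 1.5-fold and 3-fold, no filter or one at the 75th percentile, and the mean over probe sets. The number of arrays limits the precision.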

Additional observations from a re-analysis of the deposited data

How the results depend on the processing

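No paired analysis was possible because there is a single array on either side, and none can be left out. Sfrp1 was at least 2-fold lower and Sfrp2 at least 2-fold higher by their brightest probe sets under all scalings, pseudocounts and fold sizes tried, without a filter and with the mean over probe sets. The 75th percentile filter left 0 member genes lower, because the mean level of Sfrp1 fell below it. The Sfrp1 probe set 1438620_x_at came to -0.93 with spike-in scaling and -0.65 with a pseudocount of 64, so under 2-fold, and 1416594_at and 1460187_at came to -1.09 and -1.97 with a pseudocount of 1, so past it.

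The counts over all genes, 76 higher and 79 lower, were 268 and 282 at 1.5-fold, 28 and 23 at 3-fold, and 48 and 46 with the 75th percentile filter. Spike-in scaling gave 121 higher and 54 lower, and a pseudocount of 64 gave 44 lower. Spike-in scaling moved the median of all genes to 0.17 and the list medians with it: ligands 0.23, receptors 0.18, other antagonists 0.029, agonists 0.056, transducers 0.24, targets 0.17, polarity 0.31, cysteine-rich domain 0.32, netrin-like domain 0.55, procollagen proteinases 0.019 and heparan sulfate genes 0.49. Without a filter the medians were 0.18 for agonists, 0.11 for netrin-like and -0.0019 for heparan sulfate genes. With the 75th percentile filter they were -0.13 for receptors, -0.24 for other antagonists, -0.48 for polarity and 0.87 for heparan sulfate genes, and polarity came to 0.018 with the mean over probe sets. Of 218 recomputed values 185 kept their side of 2-fold or stayed close.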
